A study of Rattus rattus with 8 samples.

Results

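The 5 mast cell protease genes listed for colonic epithelium of SHR and WKY rats are described here: Mcpt2, Mcpt4, Mcpt1l4, Mcpt8 and Mcpt8l2. They were taken by name, as the rows whose gene name begins with Mcpt, and make up 5 of the 11762 genes in the table. The spontaneously hypertensive rat (SHR) is an inbred strain whose blood pressure rises with age, and Wistar-Kyoto (WKY) is the inbred strain usually set beside it as normotensive. There were 4 SHR and 4 WKY libraries of proximal colon epithelium, untreated as far as the labels say, and the labels give neither age nor sex. The epithelium was loosened with EDTA and DTT and shaken off, so cells lodged in or beneath it can be carried along. The labels number the libraries without naming animals, so the p-values below measure the spread between these libraries, which may be technical.

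Mast cells are immune cells of connective tissue and mucosa that store serine proteases in granules, bound to the proteoglycan serglycin, and release them when IgE receptors or other triggers activate them. In rats, Mcpt2 encodes the chymase of mucosal mast cells, which sit in the gut lining; it is released in worm infection and anaphylaxis and makes the epithelium more permeable. Mcpt8 and Mcpt8l2 belong to a subfamily of these proteases; in mice the gene named Mcpt8 marks basophils. Mcpt4 and Mcpt1l4 are further members of the chymase family. In bulk RNA of this kind, fewer mast cells and less RNA per mast cell cannot be told apart.

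All 5 proteases fell in SHR. In every one of them the highest SHR library lay below the lowest WKY library, and all 5 passed limma's test over the 11069 genes that had at least 1 FPKM in at least 4 libraries. FPKM is a level per length of transcript and per number of reads. Over all tested genes, 7.48% were called lower in SHR at a Benjamini-Hochberg adjusted p under 0.05, and 10.8% had all SHR values below all WKY values. The summed FPKM of the 5 genes averaged 43.9 ± 5.52 in SHR and 99.5 ± 12.3 in WKY (SD, n = 4 each).

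**Figure D1:**
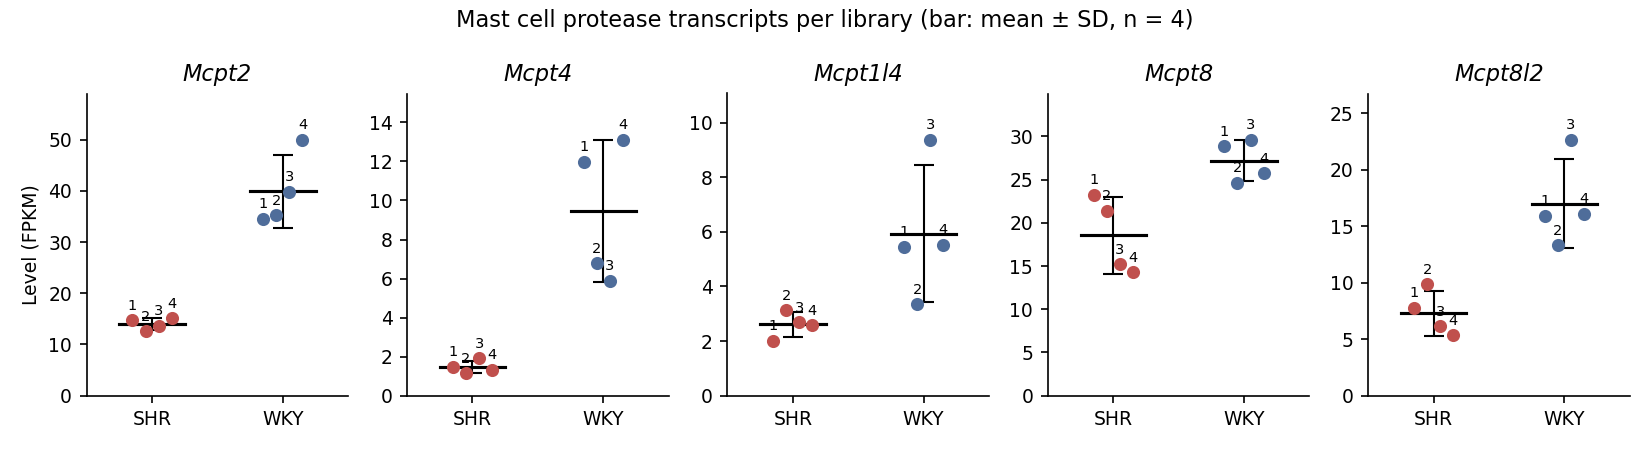
Level in FPKM (vertical axis, from 0) of each mast cell protease in 4 SHR and 4 WKY libraries, 1 panel per gene. Points are libraries marked with their replicate number, the long bar is the mean and the whiskers are the SD. In each panel all SHR points lie below all WKY points, most narrowly for Mcpt1l4 (3.14 against 3.35 FPKM) and Mcpt8 (23.27 against 24.63 FPKM).

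Mcpt2 (ENSRNOG00000020625) was the most abundant of the 5 in WKY and the one with the smallest p. It had 14.78, 12.53, 13.7 and 15.16 FPKM in SHR replicates 1 to 4, against 34.57, 35.23, 39.79 and 50 FPKM in WKY replicates 1 to 4. The SHR libraries lay close together, with a coefficient of variation of 8.42%, against 17.9% in WKY. The SHR mean was 35.2% of the WKY mean, and the log2 fold change of FPKM + 1 was -1.43 ± 0.13 (SE; limma, adjusted p = 1.61e-05). It ranked 71 of 11069 genes by p, and 0.768% of the genes had a log2 fold change as low or lower.

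Mcpt4 (ENSRNOG00000024785) showed the largest difference of the 5. Its level was 1.48, 1.15, 1.91 and 1.32 FPKM in SHR replicates 1 to 4, against 11.99, 6.8, 5.88 and 13.12 FPKM in WKY. WKY replicates 1 and 4 stood well above WKY replicates 2 and 3, and the SHR libraries were all near the lower limit set for testing. The SHR mean was 15.5% of the WKY mean, with a log2 fold change of -2.02 ± 0.22 (limma, adjusted p = 0.000103). At so low a level the size depends on the constant added before taking logs, and it was -2.55 with 0.1 FPKM and -1.13 with 5 FPKM added. The authors' deposited table gives its mean as 1.01 CPM in SHR and 6.38 CPM in WKY, a low level on that scale too.

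Mcpt1l4 (ENSRNOG00000031792) was scarce in both strains. It had 2.02, 3.14, 2.7 and 2.59 FPKM in SHR and 5.46, 3.35, 9.38 and 5.53 FPKM in WKY, so that WKY replicate 2 almost met the SHR range and WKY replicate 3 stood far above the rest. The log2 fold change was -0.88 ± 0.22 (limma, adjusted p = 0.0239). The size moved with the constant added, to -0.50 with 5 FPKM, where the adjusted p was 0.0369. Fits that left out 1 library at a time, called leave-one-out fits below, lost the call in 4 of 8 cases, those without WKY replicate 4 or without SHR replicate 1, 3 or 4, with adjusted p between 0.056 and 0.0637.

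Mcpt8l2 (ENSRNOG00000049096) had 7.77, 9.86, 6.12 and 5.37 FPKM in SHR and 15.92, 13.33, 22.65 and 16.08 FPKM in WKY. The groups were well apart, with the same WKY replicate 3 highest as for Mcpt1l4. Its SHR mean was 42.8% of its WKY mean, a log2 fold change of -1.13 ± 0.19 (limma, adjusted p = 0.00256).

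Mcpt8 (ENSRNOG00000049991) differed least. It had 23.27, 21.39, 15.2 and 14.31 FPKM in SHR, against 28.86, 24.63, 29.64 and 25.74 FPKM in WKY. SHR replicates 1 and 2 came close to the lowest WKY library, and SHR replicates 3 and 4 lay lower. The log2 fold change was -0.55 ± 0.15 (limma, adjusted p = 0.0375), with a 95% interval of -0.89 to -0.22. This call was fragile, since 6 of the 8 leave-one-out fits lost it, all but those without SHR replicate 1 or 2, with adjusted p between 0.0535 and 0.121. It was also lost in the fit in which libraries were centred on their median gene (adjusted p = 0.079). The q-value in the authors' deposited table is 0.0903.

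Close relatives in this protease family share stretches of sequence, and the labels do not describe how reads that match several genes were assigned, so the division of reads among the 5 genes is uncertain. None of the 5 shared its values with another row of the table. In the authors' deposited table the log2 fold changes of SHR over WKY are -1.50 for Mcpt2, -2.64 for Mcpt4, -1.12 for Mcpt1l4, -1.17 for Mcpt8l2 and -0.48 for Mcpt8, in CPM and with another test.

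**Figure D2:**
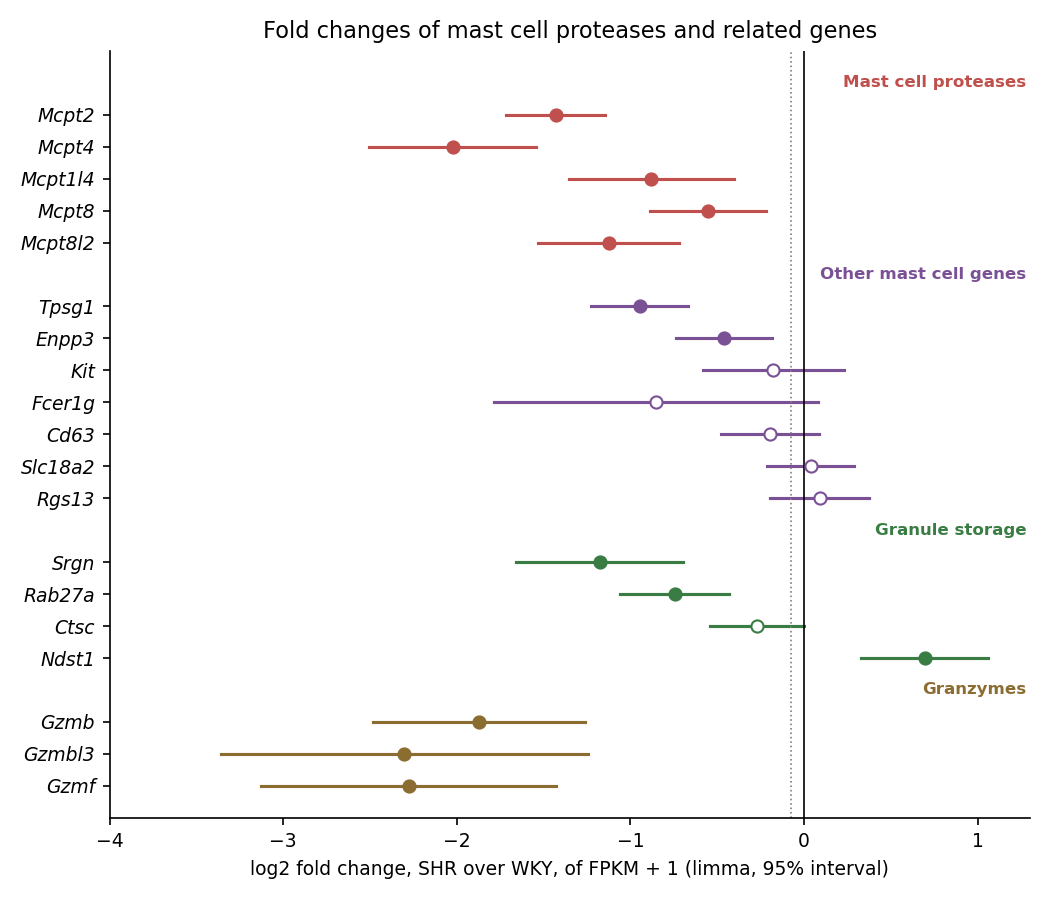
Log2 fold change of FPKM + 1, SHR over WKY (horizontal axis), with limma's 95% interval for the mast cell proteases, other mast cell genes, genes of granule storage and granzymes. Filled points passed at an adjusted p under 0.05, open points did not, and the dotted line is the median of all tested genes at -0.07. All 5 proteases are filled and left of 0, while Kit at -0.18 and Rgs13 at 0.09 are open.

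The order of the levels differed between the strains. In SHR it ran Mcpt8, Mcpt2, Mcpt8l2, Mcpt1l4 and Mcpt4 from high to low, with overlapping ranges only for Mcpt8 and Mcpt2, and with Mcpt1l4 (lowest library 2.02 FPKM) just above Mcpt4 (highest library 1.91 FPKM). In WKY it ran Mcpt2, Mcpt8, Mcpt8l2, Mcpt4 and Mcpt1l4, with overlapping ranges only for the last pair. Mcpt8 held 41.7 ± 4.89% of the summed FPKM of the 5 genes in SHR and 27.6 ± 3.01% in WKY (SD, n = 4 each). Mcpt2 held 32.4 ± 5.65% in SHR and 40.1 ± 4.46% in WKY, and these shares overlapped between libraries. Mcpt4 held 3.40 ± 1.03% in SHR and 9.48 ± 3.26% in WKY, while Mcpt8l2 held 16.4 ± 2.87% in SHR and 17.0 ± 2.83% in WKY.

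**Figure D3:**
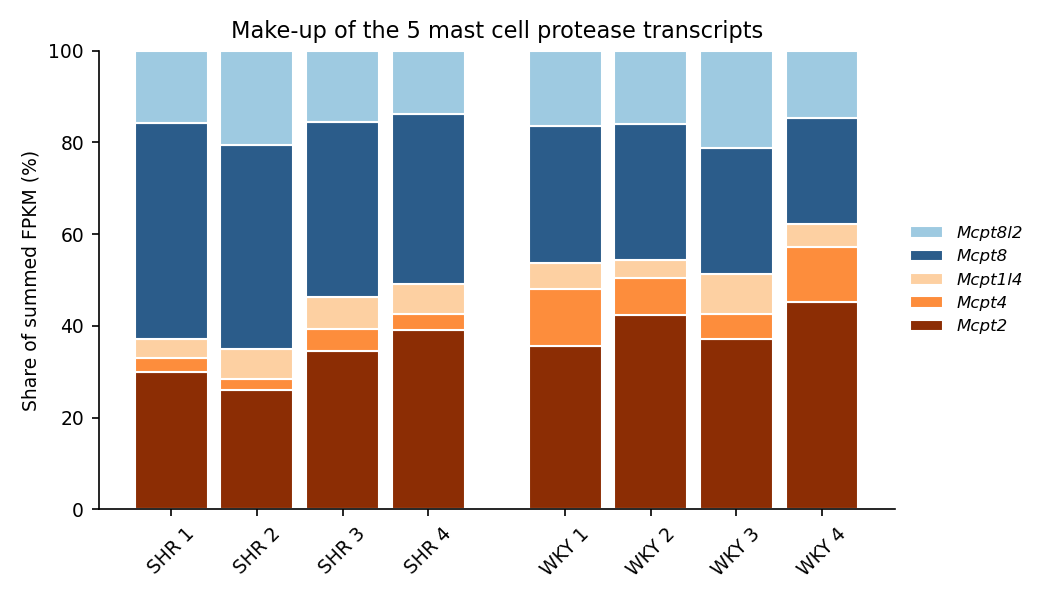
Share of the summed FPKM of the 5 mast cell proteases held by each gene (vertical axis, percent), with 1 stacked bar per library, SHR left and WKY right. Mcpt8 takes between 36.9% and 47.2% of each SHR bar and between 23.3% and 29.8% of each WKY bar.

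Whether the proteases fell by unequal amounts was tested on the ratio of each pair within a library. The ratio of Mcpt2 to Mcpt8 was 0.64, 0.59, 0.90 and 1.06 in SHR replicates 1 to 4, against 1.20, 1.43, 1.34 and 1.94 in WKY. The ratio of Mcpt8 to Mcpt8l2 lay between 2.17 and 2.99 in SHR and between 1.31 and 1.85 in WKY. The ratio of Mcpt2 to Mcpt4 lay between 7.17 and 11.5 in SHR and between 2.88 and 6.77 in WKY, and that of Mcpt4 to Mcpt8 between 0.054 and 0.126 in SHR and between 0.198 and 0.51 in WKY. These 4 of the 10 pairs did not overlap between the strains, and each had a two-sided exact permutation p of 0.0286, the smallest that 4 against 4 libraries can give. Adjusted over the 10 pairs the exact p was 0.0714 for each of them, so 0 pairs passed. Those 4 pairs were already at the smallest exact p, so a larger difference in them could not have passed either. The test therefore cannot decide whether the falls were unequal.

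Within a strain the 5 genes did not rise and fall as a block. Mcpt1l4, Mcpt8 and Mcpt8l2 were all highest in WKY replicate 3 and lowest in WKY replicate 2, whereas Mcpt2 and Mcpt4 were highest in WKY replicate 4 and Mcpt4 was lowest in WKY replicate 3. As a description over the 8 libraries, each taken as its deviation from its strain's mean, Pearson's r was 0.79 for Mcpt8 with Mcpt8l2, 0.68 for Mcpt1l4 with Mcpt8l2 and 0.37 for Mcpt2 with Mcpt4. It was 0.19 or less for the other 7 pairs. The values of a pair come from the same libraries, and related genes may share reads.

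**Figure D4:**
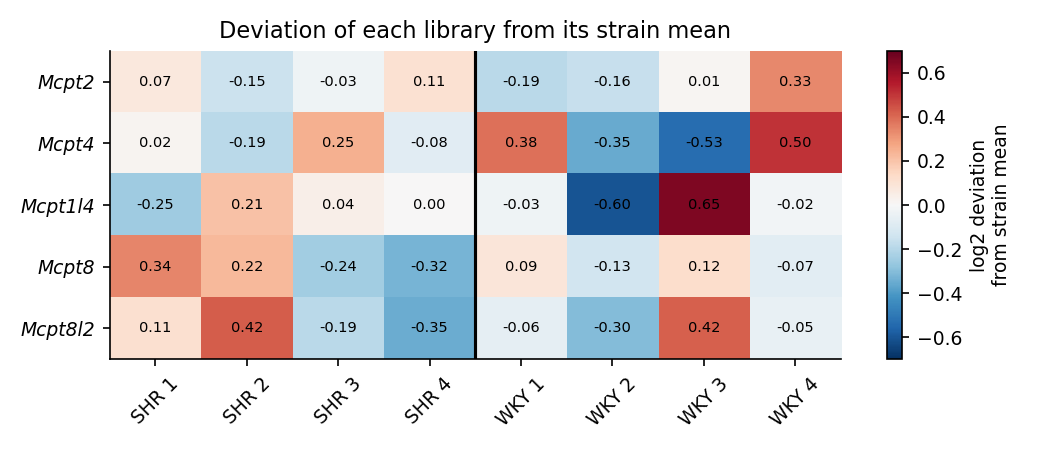
Deviation of each library from its strain mean, in log2 of FPKM + 1 (colour and printed value), for the 5 mast cell proteases (rows) in 4 SHR and 4 WKY libraries (columns, with a line between the strains). WKY replicate 3 is at 0.65 for Mcpt1l4 and 0.42 for Mcpt8l2 but at -0.53 for Mcpt4.

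Other genes of mast cells gave a mixed picture. Of 25 such genes, 7 had a row and were tested, of which 2 fell, 0 rose and 5 did not pass. The median log2 fold change of the 7 was -0.20, beside -0.07 for all tested genes, of which 7.48% were called lower. Tpsg1, which encodes a membrane-bound tryptase described in mast cells, had 9.92, 9.86, 8.56 and 7.82 FPKM in SHR and 19.77, 15.22, 21.2 and 17.49 FPKM in WKY. Its groups were well apart, with a log2 fold change of -0.95 ± 0.13 (limma, adjusted p = 0.000622), and all 8 leave-one-out fits kept the call. Which cells of these libraries carried Tpsg1 was not tested. Enpp3 encodes an ectoenzyme on mast cells and basophils that epithelia express too. It fell and was low in both strains (0.705 ± 0.236 FPKM in SHR and 1.34 ± 0.195 FPKM in WKY, adjusted p = 0.0351). That call was lost in 6 of 8 leave-one-out fits and with quantile normalization (adjusted p = 0.112). Of the SHR libraries only replicate 2 reached 1 FPKM, so Enpp3 met the filter mainly through its WKY values.

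Kit, the receptor through which stem cell factor keeps mast cells alive, was at 2.4, 4.89, 4.05 and 3.84 FPKM in SHR and 3.22, 4.6, 5.87 and 3.94 FPKM in WKY. These ranges overlapped in part, between 3.22 and 4.89 FPKM. The log2 fold change was -0.18 with a 95% interval of -0.58 to 0.23 (limma, adjusted p = 0.571). Fcer1g, the signalling chain of the IgE receptor and of other Fc receptors, was at 3.81 ± 1.57 FPKM in SHR and 8.10 ± 4.86 FPKM in WKY and did not pass (adjusted p = 0.218). Slc18a2, the transporter that loads amines such as histamine into granules, was at 3.54 ± 0.339 FPKM in SHR and 3.43 ± 0.322 FPKM in WKY (adjusted p = 0.864). Kit, Fcer1g and Slc18a2 are also expressed by cells other than mast cells. The defining genes Cpa3, Ms4a2, Fcer1a, Hdc, Tpsab1, Tpsb2 and Cma1 had no row under those names and were not analysed here.

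Of 14 genes for the storage and activation of granule proteases, 10 were tested, of which 2 fell, 1 rose and 7 did not pass. The median log2 fold change of the 10 was -0.16. Among all tested genes 7.48% were called lower and 3.4% higher. Srgn, which encodes serglycin, had 2.1, 3.6, 3.77 and 1.76 FPKM in SHR and 7.18, 4.81, 9.45 and 8.86 FPKM in WKY, without overlap and with a log2 fold change of -1.18 ± 0.22 (limma, adjusted p = 0.00552). Serglycin is made by lymphocytes as well. Rab27a, a small GTPase of granule release, was at 10.7 ± 1.71 FPKM in SHR and 18.7 ± 3.15 FPKM in WKY and fell (adjusted p = 0.00628). Ctsc, whose product cathepsin C trims granule proteases into their active form, was at 65.1 ± 5.65 FPKM in SHR and 79.2 ± 11.3 FPKM in WKY and did not pass (adjusted p = 0.181). The gene that rose was Ndst1, a heparan sulfate sulfotransferase of many tissues, at 13.0 ± 2.58 FPKM in SHR and 7.67 ± 1.70 FPKM in WKY (adjusted p = 0.02; 4 of 8 leave-one-out fits lost the call).

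Granzymes of cytotoxic lymphocytes belong to the same protease family, and in rats those of the granzyme B group lie in the same gene cluster as the mast cell proteases. Of 17 other genes of that cluster, 3 had a row and all 3 fell, beside 7.48% called lower among all tested genes. Gzmb had 0.8, 2.21, 1.95 and 0.46 FPKM in SHR and 6.59, 5.19, 10.91 and 7 FPKM in WKY (adjusted p = 0.00206). It was under 1 FPKM in SHR replicates 1 and 4 and so met the filter mainly through its WKY values. Gzmf was at 1.43 ± 0.631 FPKM in SHR and 11.8 ± 6.38 FPKM in WKY (adjusted p = 0.00635), and Gzmbl3 at 3.80 ± 0.683 FPKM in SHR and 25.9 ± 12.4 FPKM in WKY (adjusted p = 0.0185; 3 of 8 leave-one-out fits lost the call). As close relatives their reads may also be divided.

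Markers of lymphocytes moved in the same direction as the proteases. Of 18 T and natural killer cell markers, 11 had a row and 10 were tested, of which 4 fell, 0 rose and 6 did not pass. The median log2 fold change of the 10 was -1.35, and 7.48% of all tested genes were called lower. The 4 that fell were Gzmb, Gzma, Nkg7 and Cd3g, and Cd3g lost its call in 5 of 8 leave-one-out fits. Gzmb is the same row already counted among the genes of the protease cluster. Nkg7 was under 1 FPKM in all 4 SHR libraries and so was tested only through its WKY values. The count of T and natural killer cell markers that fell rose to 10 of 10 when WKY replicate 2 was left out. That fit called 597 of all tested genes lower. With any other library left out the count of these markers was 3 or 4. It was 7 with limma run without its trend and robust settings. The summed FPKM of the 11 markers was 32.8, 60.9, 64.0 and 24.5 in SHR replicates 1 to 4, against 163.9, 67.8, 318.1 and 238.4 in WKY. WKY replicate 2 thus lay next to the SHR libraries. Of 12 markers of all leukocytes, 8 were tested, of which 3 fell (Ptprc, Cd53 and Laptm5) and 0 rose. The median log2 fold change of the 8 was -1.02, and the share to set beside them is the same 7.48%. Ptprc, the common leukocyte antigen CD45, was at 1.04 ± 0.379 FPKM in SHR and 3.82 ± 1.83 FPKM in WKY (adjusted p = 0.0205). It was under 1 FPKM in SHR replicates 1 and 4, and 4 of 8 leave-one-out fits lost its call. Laptm5 lost its call in 7 of those 8 fits and also with quantile normalization (adjusted p = 0.061) and median centring (adjusted p = 0.0658). The count of leukocyte markers that fell was 7 of 8 without WKY replicate 2, and 1 or 2 when any other library was left out. It was 1 when either library numbered 1 or either numbered 4 was the one left out.

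Lymphocyte markers were at their WKY low in WKY replicate 2, a single library, where Mcpt2 and Mcpt4 were well above every SHR library. These markers do not measure mast cells, and their relation to the proteases was not tested. Mcpt2 was at 12.53 and 13.7 FPKM in SHR replicates 2 and 3, against 35.23 FPKM in WKY replicate 2, while the summed T and natural killer cell markers were at 60.9, 64.0 and 67.8 in these libraries. Mcpt4 was at 1.15 and 1.91 FPKM in the SHR libraries named, against 6.8 FPKM in WKY replicate 2. Mcpt1l4 came closer, at 3.14 and 2.7 FPKM in those SHR libraries and 3.35 FPKM in WKY replicate 2, and so did Mcpt8, at 21.39 and 15.2 FPKM in the SHR libraries and 24.63 FPKM in WKY replicate 2. Mcpt8l2 lay between, at 9.86 and 6.12 FPKM in the SHR libraries and 13.33 FPKM in WKY replicate 2. Leaving out WKY replicate 3, which had the most lymphocyte transcript, gave log2 fold changes of -1.43 for Mcpt2, -2.20 for Mcpt4, -0.66 for Mcpt1l4, -0.99 for Mcpt8l2 and -0.51 for Mcpt8, of which Mcpt8 lost its call (adjusted p = 0.0635).

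Set against leukocyte transcript, the outcome depended on the measure of leukocytes used. The ratio of Mcpt2 to Ptprc was 27.4, 10.3, 9.65 and 15.6 in SHR and 10.1, 22.2, 6.63 and 11.8 in WKY, and that of Mcpt8 to Ptprc lay between 10.7 and 43.1 in SHR and between 4.94 and 15.5 in WKY. All 5 proteases overlapped between the strains per unit of Ptprc, which was as low as 0.54 FPKM in SHR, so that these ratios are imprecise. Per summed FPKM of the 8 listed leukocyte markers, Mcpt4 lay between 0.0195 and 0.0378 in SHR and between 0.0538 and 0.153 in WKY, and Mcpt8l2 between 0.105 and 0.167 in SHR and between 0.182 and 0.258 in WKY, neither with overlap, while Mcpt2, Mcpt1l4 and Mcpt8 overlapped. The mean ratio of the 5 summed proteases in SHR was 1.59 times that in WKY per Ptprc and 0.72 times that in WKY per summed markers. The largest part of that sum was Rac2, at 32.87, 35.6, 33.38 and 23.25 FPKM in SHR and 29.71, 32.16, 33.88 and 32.07 FPKM in WKY. The part of a change in leukocyte number in the fall of the proteases was not tested.

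**Figure D5:**
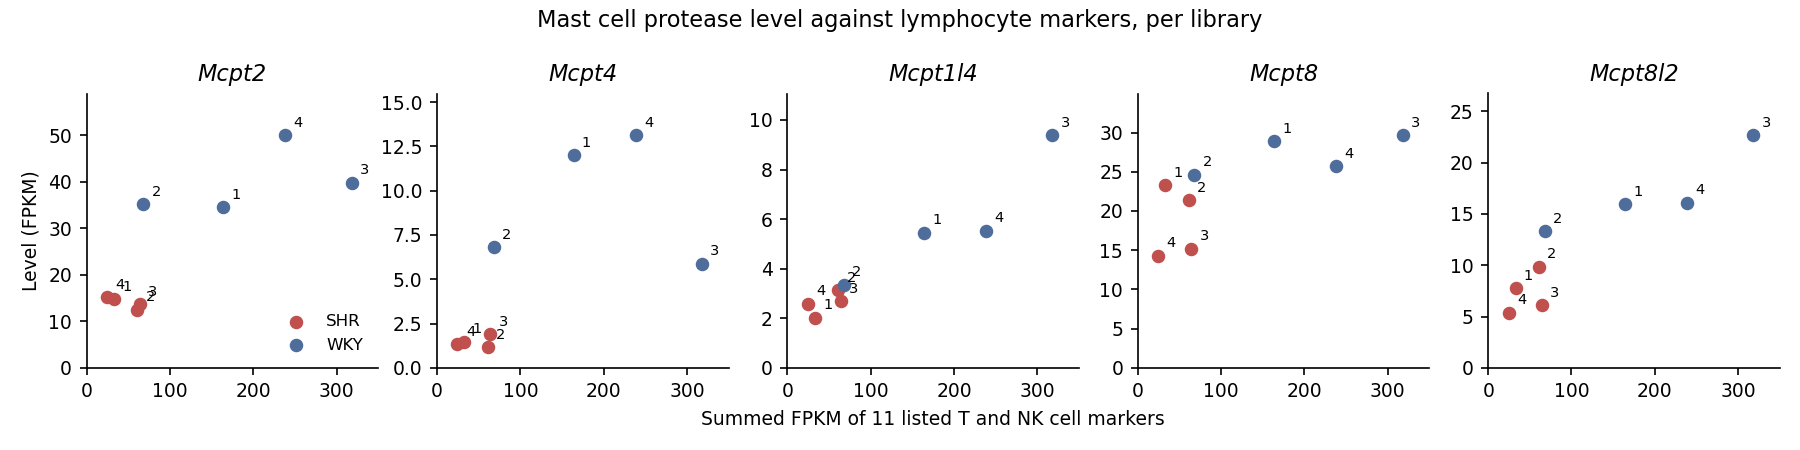
Level of each mast cell protease (vertical axis, FPKM) against the summed FPKM of 11 T and natural killer cell markers (horizontal axis) in each library, numbered by replicate. WKY replicate 2, at 67.8 on the horizontal axis, lies beside the SHR libraries there. It has 35.23 FPKM of Mcpt2, where the highest SHR library has 15.16 FPKM. For Mcpt1l4 it has 3.35 FPKM, where the highest SHR library has 3.14 FPKM.

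Few markers of other cell types that a shaken epithelium could hold had a row. The shares to set beside their counts are 7.48% of all tested genes called lower and 3.4% called higher. Basophil and eosinophil markers had 1 listed gene of 10, the interleukin 3 receptor gene Il3ra, at 8.68 ± 1.44 FPKM in SHR and 9.54 ± 1.22 FPKM in WKY (limma, adjusted p = 0.586). Neutrophil markers had 1 of 9 (S100a9, adjusted p = 0.381), and B and plasma cell markers 1 of 11 (Sdc1, which epithelium expresses too, adjusted p = 0.44). Of 14 macrophage and dendritic cell markers, 6 were tested, of which Cd74 fell and Cd14 rose. Cd14 was at 130.9 ± 4.13 FPKM in SHR and 86.8 ± 2.46 FPKM in WKY. Csf1r of the same list, too low to be tested, was at 0.325 ± 0.165 FPKM in SHR and 0.525 ± 0.21 FPKM in WKY. Which cells carried Cd14 was not tested. Cd74 lost its call in 5 of 8 leave-one-out fits, as did Cdx1, an epithelial transcription factor gene. Fibroblast and muscle markers had 2 tested genes of 12 and neither passed, and 0 of 8 endothelial and 0 of 8 neuronal and glial markers had a row. Of 14 markers of colon epithelium, 13 were tested, of which Krt18 fell and Cdx1 rose. The summed FPKM of this list was 37492 ± 981 in SHR and 37592 ± 4845 in WKY. The largest part of that sum was Car1, at 20471 ± 1956 FPKM in SHR and 19971 ± 3741 FPKM in WKY. Epcam alone was at 1585 ± 83.8 FPKM in SHR and 1616 ± 46.6 FPKM in WKY, far above Ptprc.

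Signals that support mucosal mast cells were examined as a list of 21 genes, of which 13 were tested: 3 fell, 2 rose and 8 did not pass, and the median of their log2 fold changes was -0.17. Over all tested genes 3.4% were called higher and 7.48% lower. Il18, a cytokine of epithelium that also acts on mast cells, fell to 38.0 ± 4.96 FPKM in SHR, against 90.5 ± 23.8 FPKM in WKY (limma, adjusted p = 0.000632). Kitlg, which encodes stem cell factor, was at 29.2 ± 4.87 FPKM in SHR and 32.7 ± 2.10 FPKM in WKY and did not pass (adjusted p = 0.404). Il33, an alarmin that activates mast cells, was too low to be tested, at 0.39 ± 0.188 FPKM in SHR and 0.88 ± 0.244 FPKM in WKY.

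In mice, TGF-beta activated by the epithelial integrin of Itgav and Itgb6 induces the mucosal protease and the integrin chain of Itgae in mast cells. Itgb6 was at 21.56, 20.6, 21.78 and 22.67 FPKM in SHR, against 14.49, 13.29, 12.1 and 9.46 FPKM in WKY. It rose by a log2 fold change of 0.78 ± 0.13 (limma, adjusted p = 0.00246). Itgav was at 5.77 ± 1.60 FPKM in SHR and 5.07 ± 0.978 FPKM in WKY and did not pass (adjusted p = 0.671). Tgfb1 was at 0.81 ± 0.44 FPKM in SHR and 1.98 ± 0.892 FPKM in WKY and did not pass (adjusted p = 0.0566). Nor did Itgb7, at 0.795 ± 0.375 FPKM in SHR and 2.705 ± 1.36 FPKM in WKY (adjusted p = 0.0738). The authors' q-values are 0.0248 for Tgfb1 and 0.00163 for Itgb7. Itgae, also carried by intraepithelial T cells, fell and was low in both strains (1.02 ± 0.215 FPKM in SHR and 2.10 ± 0.607 FPKM in WKY, adjusted p = 0.0265), a call that 4 of 8 leave-one-out fits and quantile normalization (adjusted p = 0.0632) lost. The receptor genes went opposite ways, Tgfbr1 at 9.23 ± 1.13 FPKM in SHR and 13.4 ± 0.531 FPKM in WKY (adjusted p = 0.015) and Tgfbr2 at 4.71 ± 1.62 FPKM in SHR and 2.01 ± 0.891 FPKM in WKY (adjusted p = 0.0185). The call of Tgfbr2 was lost when WKY replicate 1 (adjusted p = 0.0507) or WKY replicate 2 (0.0525) was left out, and that of Tgfbr1 when SHR replicate 3 was (0.0532).

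Of 18 genes of the type 2 response, which brings mast cells into the gut mucosa in worm infection, 7 were tested, 2 rose and 0 fell. The median log2 fold change of the 7 was 0.19, and 3.4% of all tested genes were called higher. Il4r, the receptor chain for interleukins 4 and 13, was at 22.3 ± 3.40 FPKM in SHR and 13.4 ± 2.07 FPKM in WKY (limma, adjusted p = 0.0073). Stat6, the transcription factor below it, was at 37.3 ± 6.00 FPKM in SHR and 24.6 ± 5.47 FPKM in WKY (adjusted p = 0.0322), a call that 6 of 8 leave-one-out fits lost.

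Genes on which such proteases act, or that restrain proteases, were read against the 10.9% of all tested genes that were called in either direction. Of 13 junction proteins and protease-activated receptors, 12 were tested, 1 fell and 2 rose, and the median of their log2 fold changes was 0.01. Ocln, the tight junction protein occludin, was at 61.6 ± 2.46 FPKM in SHR and 62.0 ± 5.68 FPKM in WKY (limma, adjusted p = 0.97). F2rl1, the receptor that tryptase can cleave, was at 23.5 ± 2.99 FPKM in SHR and 27.2 ± 3.51 FPKM in WKY and did not pass (adjusted p = 0.32), while the thrombin receptor gene F2r fell and was low in both strains (0.508 ± 0.097 FPKM in SHR and 1.35 ± 0.215 FPKM in WKY, adjusted p = 0.00388). F2r was under 1 FPKM in all 4 SHR libraries and was tested only through its WKY values. F11r and Marveld2 rose, and lost their calls in 6 and 3 of 8 leave-one-out fits. Of 15 inhibitors of serine proteases, 7 were tested and 1 passed, the granzyme B inhibitor gene Serpinb9, which fell (adjusted p = 0.0417; 6 of 8 leave-one-out fits lost the call, as did median centring, quantile normalization and a constant of 5 FPKM, with adjusted p of 0.073, 0.0867 and 0.0692). Serpinb9 was under 1 FPKM in SHR replicates 1 and 4 and so met the filter mainly through its WKY values. Serpinb1a is an inhibitor of chymotrypsin-like and elastase-like granule proteases. It was at 1035 ± 119.6 FPKM in SHR and 786.8 ± 53.7 FPKM in WKY, without overlap, and did not pass (adjusted p = 0.0534).

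Serine proteases that epithelium itself makes were examined beside those of mast cells. Of 15 such genes, 8 were tested, 1 fell and 0 rose, beside 7.48% called lower among all tested genes. The median log2 fold change of the 8 was 0.12. Klk1, tissue kallikrein, which releases kinins, was at 93.8 ± 27.0 FPKM in SHR and 162.9 ± 13.4 FPKM in WKY and fell (limma, adjusted p = 0.00955). St14, which encodes matriptase of the epithelial surface, was at 202.1 ± 35.9 FPKM in SHR and 172.7 ± 11.7 FPKM in WKY (adjusted p = 0.3).

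The genes whose level followed the mean of the 5 proteases most closely from library to library within a strain were Egln2, Csad, Ndufa1, Ptprcap, Arhgef19 and Coro1a. The measure was Pearson's r with the mean deviation of the 5 proteases over the 8 libraries, and it lay between 0.94 and 0.98 for these 6 of 11009 genes. That mean deviation was -0.31 in WKY replicate 2 and between -0.13 and 0.14 in every other library, so r rests largely on WKY replicate 2. The 5 proteases did not move as a block, so r does not show that a gene followed each of them. With so few libraries r is widely spread, from -0.77 to 0.65 between the 5th and 95th percentile of all genes. Ptprcap and Coro1a are leukocyte genes. Ptprcap was at 1.69 ± 0.780 FPKM in SHR and 8.27 ± 4.88 FPKM in WKY (limma, adjusted p = 0.1), and passed without WKY replicate 2 (adjusted p = 0.000621), as did Coro1a (0.000873). Egln2, a prolyl hydroxylase gene, was at 29.9 ± 1.40 FPKM in SHR and 29.9 ± 2.30 FPKM in WKY (adjusted p = 0.99).

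Over the whole series, 376 genes were called higher and 828 lower in SHR. Quantile normalization changed the split to 642 up in SHR and 644 down, and centring each library on its median gene to 541 up and 714 down, and the 5 proteases had negative log2 fold changes under both. The FPKM of all genes summed to between 882295 and 1066833 per library. These values carry no read counts, so the depth is unknown.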

How the data were processed

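The submitters' processing notes name FastQC, STAR and Trimmomatic. For the build, annotation, counting tool, read assignment and use of strand, nothing is given in the sources used here. Of the deposited table of all genes, the per-library values were taken as FPKM, a unit no header names and which rests on the values. Per the file headers, the authors also deposited q-values, p-values, a log2 fold change and the mean CPM per strain. The remaining tables repeat its rows.

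Genes that reached 1 FPKM in 4 or more libraries were fitted as log2(FPKM + 1) on strain with limma 3.58.1 (R 4.3.3; two-sided, with eBayes set to trend and robust), adjusted by Benjamini-Hochberg over all 11069 tested genes at 0.05. All 5 members passed the filter. This scale understates changes of low genes. On data simulated for this comparison, the test recovered 46.3% at a 1.5-fold change, 86.6% at 2-fold and 100% at 4-fold, and 7 of 162 calls were false, over 11069 genes with independent noise. The changed genes were drawn only from those with a mean log2(FPKM + 1) above 2, so these rates do not cover lower genes. Single values were tested by exact permutation (scipy 1.17.1). Figures used matplotlib 3.10.9.

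The members and the 18 gene lists were chosen with earlier results of these data known. A list is given by its counts, with the row of highest mean for each symbol, and symbols without a row were not analysed here. The genes named are the 5 proteases, up to 6 called genes per list by p, the defining mast cell genes, and 6 genes most like the proteases. These 6 are the most like the mean of the proteases within strains, among tested genes with a named symbol and a mean of at least 1 FPKM. A few uncalled list genes (Fcer1g, Slc18a2, Kitlg, Il33, Il3ra, S100a9, Sdc1, Epcam, Ocln, F2rl1, Serpinb1a, St14, Rgs13, Itgav, Tgfb1, Itgb7, Car1) were added after their values were seen. The alternatives were constants of 0.1 and 5, no filter, a mean of at least 0.1 FPKM, quantile normalization, median centring, a replicate block, limma without trend and robust settings, an exact permutation test, the authors' q-values, and leaving out each library.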

Additional observations from a re-analysis of the deposited data

Results flagged for a closer look

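Of 86 groups of 4 libraries examined, for the 43 genes the rules for naming take, 3 held a library far from the other 3, where chance flags about 1 in 20 groups. None of the 3 was a mast cell protease. Gzmbl3 was at 7.47 FPKM in WKY replicate 2, with the other WKY libraries between 30.21 and 33.86 FPKM. Csad, one of the genes most like the mean of the proteases, was at 3.26 FPKM in WKY replicate 2, with the others between 3.95 and 4.09 FPKM. Ndufa1 was at 589.7 FPKM in SHR replicate 4, with the other SHR libraries between 637.8 and 646.0 FPKM.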

How the results depend on the processing

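The fall of Mcpt2, Mcpt4 and Mcpt8l2 kept its direction and its call under all 10 alternatives and all 8 fits without a library. Without a library the log2 fold changes ranged from -1.49 to -1.32 for Mcpt2, from -2.20 to -1.86 for Mcpt4, from -1.27 to -0.99 for Mcpt8l2, from -1.08 to -0.66 for Mcpt1l4 and from -0.67 to -0.45 for Mcpt8. Mcpt8 kept its direction but lost its call with quantile normalization (-0.51, adjusted p = 0.0779), median centring (-0.51, adjusted p = 0.079) and the authors' q-value (-0.48, q = 0.0903); the cause was not tested. The exact permutation p, not adjusted over genes, was 0.0286 for each protease, the smallest possible, which the lack of overlap alone gives. The count of genes higher in SHR was 642 with quantile normalization and 215 to 583 without a library, and the count lower was 499 to 1209; fits without a library have fewer samples. Among 38 other named genes, 523 of 608 repeats kept direction and call, 77 lost the call, 4 gained one and 4 reversed. The reversals were of uncalled values, for Ndufa1 with quantile normalization (0.028) and for Egln2 when WKY replicate 2, SHR replicate 1 or SHR replicate 2 was left out, over a range of -0.051 to 0.032.

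Libraries of the same number deviated together only for number 3 (r = 0.46 across genes; -0.11, -0.04 and -0.29 for numbers 1, 2 and 4), so the numbers were not taken to pair the samples. With the replicate block the log2 fold changes are equal by construction and all 5 proteases passed, Mcpt8 with adjusted p = 0.0379 and Mcpt2 with 6.15e-05. Low levels limit Mcpt4 and Mcpt1l4 most.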
